A study of Schmidtea mediterranea with 6 samples.

Results

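Position control genes give planarian cells their place along the body axes, and in planarians they are expressed largely by muscle. The 114 genes described here are 26 position control genes and 88 genes of a myogenesis list, out of 28742 contigs in the count table. The study's gene set tables give both lists by contig, and each contig was taken under the same number in dd_Smed_v6, a transcript assembly that carries no genome positions. Contigs that the same table lists as canonical muscle genes were left out, and so was 1 further contig that the rule for the lists excludes. Of the position control genes, 14 carry the study's mark for a secreted product and 12 do not, and these are described apart. The rule uses no measured value of these libraries, though the lists were taken up with earlier results of these data known.

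All samples were tails of asexual *Schmidtea mediterranea* of the CIW4 strain. Control animals were fed dsRNA for *unc-22*, a *C. elegans* sequence that the planarian genome lacks, and *hmcn-1(RNAi)* animals were fed dsRNA for *hmcn-1*, which encodes the extracellular matrix glycoprotein hemicentin-1. Both conditions received 4 feedings and were sampled at 13 days of RNAi, within minutes of amputation. Each library held 5 pooled tails, with 3 libraries per condition. The pool is the unit of replication, and no source states whether the 3 pools of a condition were cultured or fed apart. The p values thus rest on the spread between these pools, moderated by variation shared across contigs, and on no other replication. RNAi by feeding acts in the whole animal, and each library is bulk RNA of pooled tails. These libraries thus cannot place a difference in one cell type.

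Muscle of planarians is both contractile tissue and the main source of positional signals and of collagens. Wnt ligands and their receptors mark posterior territory, secreted Wnt inhibitors and FGF receptor-like proteins mark anterior territory, and BMP with its extracellular modulators patterns the dorsal-ventral axis. Muscle contraction itself rests on thick and thin filaments, on calcium stored in and released from the sarcoplasmic reticulum, and on attachment of fibers to basement membrane. These roles were taken as background and ordered the members below. The myogenesis genes were placed in sets by the vertebrate proteins after which the study names the contigs, and some placements are loose.

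Levels are in CPM, the reads of a contig per 1000000 reads of the scaled library total, and the quantity compared is the log2 fold change of *hmcn-1(RNAi)* over control tails from edgeR's quasi-likelihood test. A gene is called here when its Benjamini-Hochberg adjusted p over the 15333 contigs tested was under 0.05. CPM is not corrected for contig length, so levels were compared between libraries and not between genes. The contig of *hmcn-1* was at 205, 206, and 204 CPM in control tails and at 18.5, 18.5, and 16.7 CPM in *hmcn-1(RNAi)* tails (log2 fold change -3.53, edgeR with Benjamini-Hochberg adjustment, adjusted p = 7.39e-31), so the libraries carry the knockdown that their labels state. Library totals ran from 6374450 to 11887127 reads. Control replicate 1 stood apart, where the chi-square divided by its degrees of freedom was 7.98 and 6.46 against the other control libraries. It was 2.47 between control replicates 2 and 3, and 2.07 to 3.15 among the *hmcn-1(RNAi)* libraries. Against the *hmcn-1(RNAi)* libraries, control replicate 1 gave 5.57, 5.83, and 5.85, lower than against the other controls. Control replicates 2 and 3 gave 4.2 to 6.46 against them. Results without control replicate 1 are given where a call changed or a named gene's log2 fold change moved by over 1.5 times. Across all contigs tested, 173 were called (1.13%), 94 lower (0.613%) and 79 higher (0.515%) in *hmcn-1(RNAi)* tails, and the median log2 fold change was 0.000089.

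The oligonucleotides used to clone *col4-2* are shown because its contig, *CO4A2* in the myogenesis list, was the called gene of the list for which the study prints sequence. Each is written from 5′ to 3′ with no capitals, since no stretch was singled out.
col4-2 outer forward: tgcacatggacctcgagg
col4-2 inner forward: tggtgatgctggagatgaagg
col4-2 reverse: ttgaacaccgggctcacc

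No position control gene was called. Of the 26, 24 had enough reads to be tested, and *wnt1* and *foxD* did not. Log2 fold changes were below 0 for 21 of the 24, against 50% of all contigs tested, and the median was -0.11. For 5 of the 24 the unadjusted p was under 0.05, all with lower levels, where 5.52% of all contigs tested had such a p and a lower level. DESeq2 and limma-voom also called none of them, though with independent filtering DESeq2 gave an adjusted p to 4. For 6 genes every *hmcn-1(RNAi)* library was under every control library, a pattern that 7.78% of all contigs showed, and no position control gene showed the opposite. The 95% interval of the fold change excluded a 2-fold change in either direction for 22 of the 24, the exceptions being *bmp* and *wnt2*, and it held no change for 19.

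**Figure D1:**
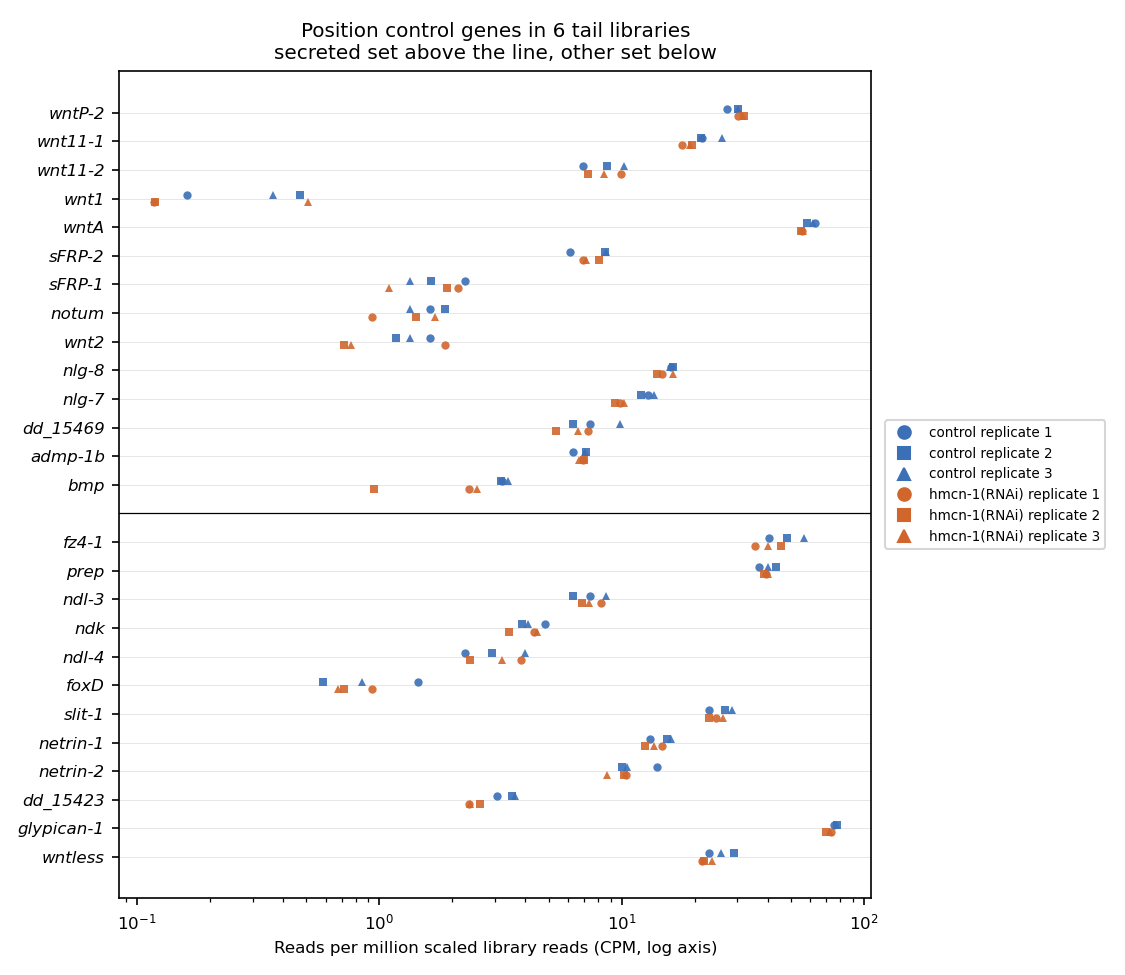
CPM (log axis) of the 26 position control genes, 1 row per gene, in the 3 control (blue) and 3 *hmcn-1(RNAi)* (orange) libraries, with the secreted set above the line. The orange points lie left of all blue points for *bmp*, *nlg-7*, *wnt11-1*, *wntA*, dd_15423, and *glypican-1*, and the conditions overlap for the others.

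The plot of levels by library shows that the spread between replicates grows toward the genes with few reads. Total reads over the 6 libraries ran from 16 for *wnt1* to 3825 for *glypican-1*. The interval of the log2 fold change was between 0.230 and 1.66 wide, with a median width of 0.627 over the position control genes.

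Among posterior genes, *wnt11-1* encodes a Wnt ligand of the tail. Its level was 21.4, 21.2, and 25.8 CPM in control libraries and 17.7, 19.4, and 19.1 CPM in *hmcn-1(RNAi)* libraries. Every *hmcn-1(RNAi)* library lay below every control library, and control replicate 3 was the highest. The log2 fold change was -0.29 (95% interval -0.49 to -0.08) and was not called (edgeR with Benjamini-Hochberg adjustment, adjusted p = 0.226). Another posterior Wnt gene, *wnt11-2*, was at 6.93, 8.67, and 10.2 CPM in control and 9.94, 7.23, and 8.46 CPM in *hmcn-1(RNAi)* tails. The conditions overlapped throughout, with a log2 fold change of -0.03 (95% interval -0.35 to 0.29).

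*wntP-2*, a Wnt ligand graded from the posterior end, had the highest log2 fold change of the position control genes tested. It measured 27.2, 30.3, and 30.2 CPM in control and 30.3, 32.1, and 31.8 CPM in *hmcn-1(RNAi)* tails, a log2 fold change of 0.10 (95% interval -0.07 to 0.27). The lowest *hmcn-1(RNAi)* library and the highest control library were level with each other, and control replicate 1 lay below the rest. The posterior ligands thus had values on both sides of 0. *wnt1*, the Wnt gene of the posterior pole, had 16 reads in all, at 0.161, 0.469, and 0.364 CPM in control and 0.117, 0.119, and 0.508 CPM in *hmcn-1(RNAi)* libraries. A difference in *wnt1* was not detectable at this depth.

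*fz4-1* encodes a Frizzled receptor for Wnt ligands of the posterior. Its level was 40.4, 48.3, and 56.5 CPM in control and 35.4, 45.3, and 40.3 CPM in *hmcn-1(RNAi)* tails. Replicates spread widely in both conditions, and the biological coefficient of variation of the gene was 10.6%, where the trend over contigs of its abundance was 5.53%. The log2 fold change of -0.27 (95% interval -0.58 to 0.04) was not called (edgeR with Benjamini-Hochberg adjustment, adjusted p = 0.524). Without control replicate 1, the lowest of the 3 control libraries, *fz4-1* was called (edgeR with Benjamini-Hochberg adjustment, adjusted p = 0.0359). Over the 13 alternative settings its adjusted p ran from 0.0259 to 0.999 (edgeR, DESeq2, and limma-voom with Benjamini-Hochberg adjustment). *wntless*, a carrier needed for Wnt secretion, was at 23.0, 29.2, and 25.7 CPM in control and 21.5, 21.9, and 23.5 CPM in *hmcn-1(RNAi)* tails. The ranges met only at *hmcn-1(RNAi)* replicate 3 and control replicate 1, and the log2 fold change of -0.22 was not called (edgeR with Benjamini-Hochberg adjustment, adjusted p = 0.360).

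Genes of anterior territory had log2 fold changes between -0.32 and 0.016 in these tails, with a median of -0.05 over the 9 tested. Heads were not sampled, so these values do not describe the genes in anterior territory itself. The 3 control libraries of *wntA*, a Wnt gene of the anterior, were at 62.8, 58.1, and 61.4 CPM, and the *hmcn-1(RNAi)* libraries at 55.7, 54.8, and 56.3 CPM. All 3 *hmcn-1(RNAi)* values were below the control range, by a log2 fold change of -0.13 (95% interval -0.25 to -0.0011, edgeR with Benjamini-Hochberg adjustment, adjusted p = 0.445). The study's tables assign the same contig to *wntA* and *prkag*, so its reads need not all be those of *wntA*.

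Secreted Wnt inhibitors gave overlapping values. *notum*, a Wnt deacylase of the anterior pole, was at 1.61, 1.87, and 1.33 CPM in control and 0.936, 1.42, and 1.69 CPM in *hmcn-1(RNAi)* libraries, with a log2 fold change of -0.22 (95% interval -0.93 to 0.49). *sFRP-1*, a secreted Frizzled-related protein gene, was at 2.25, 1.64, and 1.33 CPM in control and 2.11, 1.90, and 1.10 CPM in *hmcn-1(RNAi)* libraries, with -0.05 (95% interval -0.75 to 0.64). *sFRP-2*, of the same family, had 6.12, 8.55, and 8.61 CPM in control and 6.90, 8.06, and 7.11 CPM in *hmcn-1(RNAi)* libraries, with -0.10 (95% interval -0.43 to 0.22). *notum* and *sFRP-1* had 77 and 86 reads in all, and their intervals were wide. The ligand gene *wnt2* had 1.61, 1.17, and 1.33 CPM in control and 1.87, 0.711, and 0.761 CPM in *hmcn-1(RNAi)* tails. *hmcn-1(RNAi)* replicate 1 was the highest of the 6 libraries and the other 2 were the lowest, so the log2 fold change of -0.32 had an interval from -1.15 to 0.51.

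The genes *ndk*, *ndl-3*, and *ndl-4* encode the FGF receptor-like proteins of the anterior set. *ndk* was at 4.83, 3.87, and 4.12 CPM in control and 4.33, 3.44, and 4.48 CPM in *hmcn-1(RNAi)* tails. *ndl-3* was at 7.41, 6.32, and 8.61 CPM in control and 8.19, 6.87, and 7.36 CPM in *hmcn-1(RNAi)* tails. *ndl-4* was at 2.25, 2.93, and 4.00 CPM in control and 3.86, 2.37, and 3.21 CPM in *hmcn-1(RNAi)* tails. The conditions overlapped for all 3, with log2 fold changes of -0.04, 0.0050, and 0.016. *prep*, an anterior TALE homeobox gene, had 37.0, 43.3, and 40.0 CPM in control and 39.4, 38.5, and 40.0 CPM in *hmcn-1(RNAi)* tails. Its interval was the narrowest of this anterior set after *wntA*, from -0.19 to 0.12 around a log2 fold change of -0.03. *foxD*, a forkhead gene of the anterior pole, had 43 reads in all, between 0.586 and 1.45 CPM in control and between 0.677 and 0.936 CPM in *hmcn-1(RNAi)* libraries, and was not tested.

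Log2 fold changes were below 0 for all 9 genes of the dorsal-ventral, midline, and lateral set, from -0.70 to -0.0032, with a median of -0.23, and none was called. Of these 9, 2 had an unadjusted p under 0.05, *bmp* and *nlg-7*. *bmp* encodes the dorsal BMP ligand. Its level was 3.22, 3.16, and 3.40 CPM in control and 2.34, 0.948, and 2.54 CPM in *hmcn-1(RNAi)* tails. Control libraries lay close together, whereas *hmcn-1(RNAi)* replicate 2 was far below the other libraries. The log2 fold change was -0.70 (95% interval -1.28 to -0.12), the lowest of the position control genes, and was not called (edgeR with Benjamini-Hochberg adjustment, adjusted p = 0.316). With 1 library left out in turn, it ran from -0.98 to -0.41 and stayed below 0.

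*nlg-7* encodes a noggin-like protein, a family of secreted proteins that act on BMP signaling. It was at 12.9, 12.1, and 13.6 CPM in control and 9.83, 9.36, and 10.2 CPM in *hmcn-1(RNAi)* tails. Replicates of each condition lay close together and the conditions did not overlap. The log2 fold change was -0.38 (95% interval -0.64 to -0.12), and its adjusted p of 0.176 was the smallest of the position control genes (edgeR with Benjamini-Hochberg adjustment). *nlg-8*, of the same family, had 15.9, 16.3, and 15.9 CPM in control and 14.7, 14.0, and 16.2 CPM in *hmcn-1(RNAi)* tails, with a log2 fold change of -0.09. *admp-1b*, a BMP family ligand gene, had 6.28, 7.14, and 7.03 CPM in control and 6.90, 6.99, and 6.68 CPM in *hmcn-1(RNAi)* tails. Its log2 fold change was -0.0032 (95% interval -0.33 to 0.32), with the conditions fully overlapping.

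The contigs dd_15423 and dd_15469 are called by number, because the list names the former *wnt5* and the latter *nog-1*, whereas the study's matrix protein table gives these names the other way around. In that table the best human match is NOG for dd_15423 and WNT5B for dd_15469. Contig dd_15423 was at 3.06, 3.51, and 3.64 CPM in control and 2.34, 2.61, and 2.37 CPM in *hmcn-1(RNAi)* tails. The conditions did not overlap, and the log2 fold change was -0.49 (95% interval -0.99 to 0.00042, edgeR with Benjamini-Hochberg adjustment, adjusted p = 0.454). Contig dd_15469 was at 7.41, 6.32, and 9.82 CPM in control and 7.25, 5.33, and 6.60 CPM in *hmcn-1(RNAi)* tails, where control replicate 3 stood above the rest. Its log2 fold change was -0.29 with that library and -0.09 without it. With their places in the secreted and other sets exchanged, the medians of both sets were unchanged at -0.13 and -0.09.

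Axon guidance genes of the ventral side and the midline are in the same set. *netrin-1* was at 13.0, 15.3, and 16.0 CPM in control and 14.7, 12.4, and 13.6 CPM in *hmcn-1(RNAi)* tails, with a log2 fold change of -0.13. *netrin-2* was at 14.0, 10.1, and 10.6 CPM in control and 10.4, 10.2, and 8.71 CPM in *hmcn-1(RNAi)* tails, with -0.23, and control replicate 1 alone was high, so that without it the value was -0.09. *slit-1* was at 23.0, 26.8, and 28.5 CPM in control and 24.4, 23.0, and 26.1 CPM in *hmcn-1(RNAi)* tails, with -0.09. For these 3 genes the conditions overlapped. The study assigns the contigs of *netrin-1* and *netrin-2* to the pharynx and that of *slit-1* to muscle. *glypican-1*, which encodes a heparan sulfate proteoglycan of the cell surface, did not overlap, at 74.9, 77.4, and 76.8 CPM in control and 72.9, 69.6, and 72.4 CPM in *hmcn-1(RNAi)* tails. This gap was small, with a log2 fold change of -0.09 (95% interval -0.21 to 0.02).

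**Figure D2:**
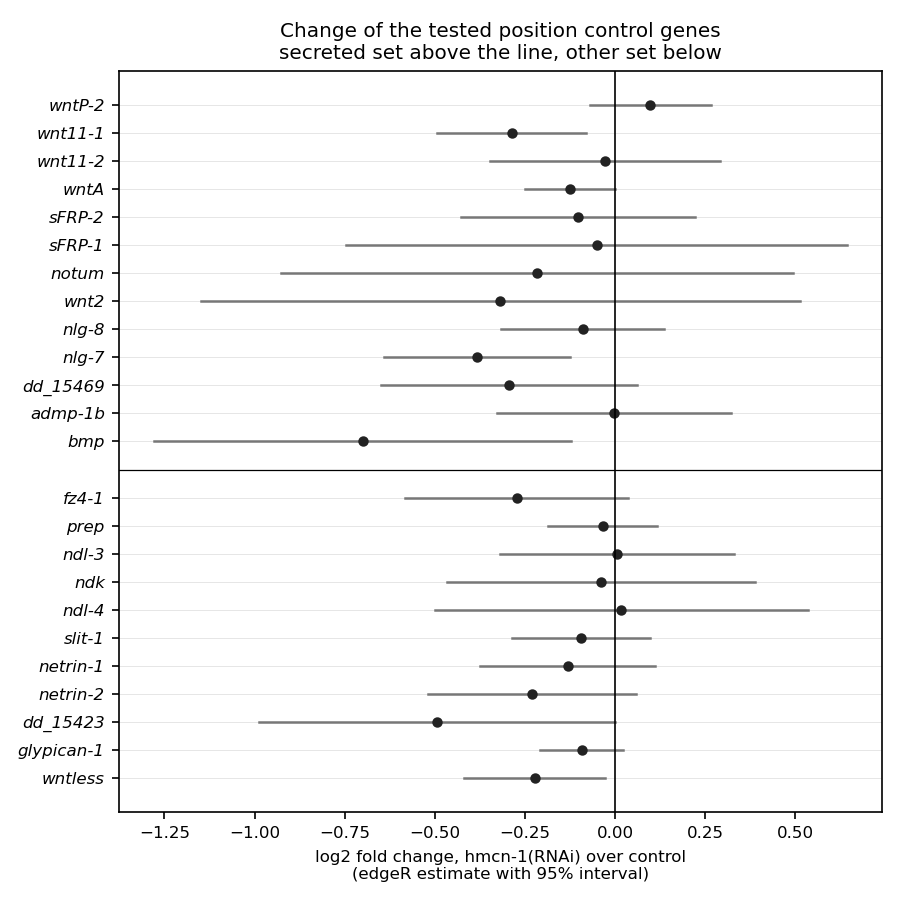
Log2 fold change of *hmcn-1(RNAi)* over control (x axis, points) with its 95% interval (lines) for the 24 tested position control genes, 1 row per gene, with the secreted set above the line. Points lie left of 0 for 21 genes, and 19 of the 24 intervals hold 0.

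Taking the sets apart, log2 fold changes were below 0 for 12 of 13 tested secreted genes and 9 of 11 tested other genes, with medians of -0.13 and -0.09. The difference between the sets was not tested. Single libraries weighed on these values. Control replicate 3 was the highest of the 6 libraries for 12 of the 24 tested genes, and *hmcn-1(RNAi)* replicate 2 the lowest for 10. Without control replicate 1 the median of the secreted set was -0.21, and with each library left out in turn between 19 and 23 of the 24 genes were below 0, not always the same ones. Several uncalled genes near the control level took their sign or size from control replicate 1. Without it the log2 fold change was 0.14 for *sFRP-1*, 0.04 for *ndk*, and -0.13 for *ndl-4*, each on the other side of 0. It was closer to 0 for *netrin-2* (-0.09), *wnt2* (-0.21), *wntP-2* (0.05), and *ndl-3* (0.0026). It was further from 0 for *wnt11-2* (-0.14), *sFRP-2* (-0.23), *netrin-1* (-0.20), *slit-1* (-0.17), *prep* (-0.08), and *admp-1b* (-0.05).

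**Figure D3:**
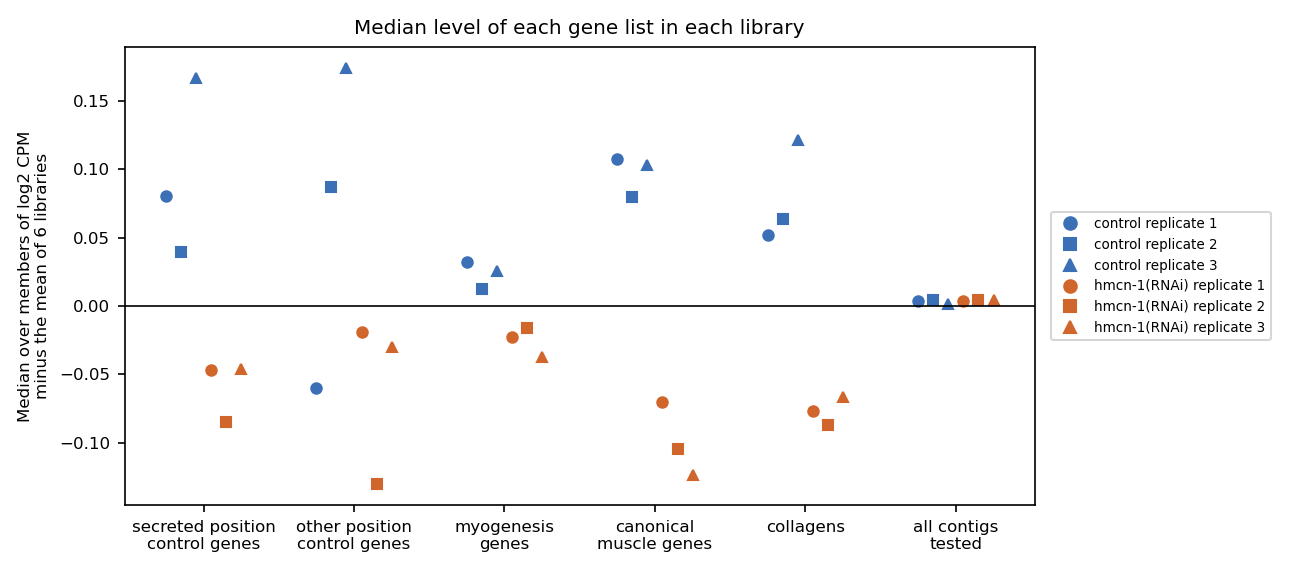
Median over the tested members of each list of the log2 CPM minus its mean over the 6 libraries (y axis), for each library, with control in blue and *hmcn-1(RNAi)* in orange. For the secreted position control genes the control libraries lie between 0.04 and 0.17 and the *hmcn-1(RNAi)* libraries between -0.09 and -0.05, whereas in the other set control replicate 1 lies at -0.06, among the *hmcn-1(RNAi)* libraries.

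Summed levels of muscle markers were lower in the same libraries. The 7 canonical muscle genes, which are no members, had a median log2 fold change of -0.22 with all 7 below 0, and summed to between 8995 and 9550 CPM in control and between 7965 and 8213 CPM in *hmcn-1(RNAi)* tails. The collagens taken here were 18, fewer than the paper counts, and in planarians collagens are made mainly by muscle. They had a median of -0.16 with all 18 below 0, and summed to between 13776 and 14718 CPM in control and between 12501 and 12889 CPM in *hmcn-1(RNAi)* tails. In bulk RNA, fewer muscle cells and less RNA of these genes per cell cannot be told apart, and the part of muscle content in the values of the members was not tested. Of the other tissues, the 4 neural markers summed to between 216 and 228 CPM in control and between 202 and 206 CPM in *hmcn-1(RNAi)* tails, and the 2 epidermal markers to between 1636 and 1713 CPM and between 1505 and 1557 CPM. The 2 markers of cathepsin+ cells lay on the other side, at between 60.3 and 71.5 CPM in control and between 74.2 and 81.5 CPM in *hmcn-1(RNAi)* tails. The 5 parenchymal markers overlapped, at between 5329 and 5606 CPM and between 5494 and 6484 CPM. The 3 gamma-neoblast markers summed to between 445 and 491 CPM in control and between 426 and 439 CPM in *hmcn-1(RNAi)* tails, and the 2 zeta-neoblast markers to between 46.7 and 49.1 CPM and between 42.8 and 45.8 CPM. The part of these other tissues was not tested either. No marker of any list was at 0 in all libraries.

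Of the 88 myogenesis genes, all were tested and 8 were called (9.09%, against 1.13% of all contigs), 7 lower and 1 higher in *hmcn-1(RNAi)* tails. Within 1.2-fold of the control level lay 79 of 88 genes (89.8%), a share near the 85.4% of all contigs. Called genes such as *AT2A1* and *CO4A2* are among these 79. The median log2 fold change of the list was -0.05. Log2 fold changes were below 0 for 63 genes and above 0 for 25. In 21 genes the highest *hmcn-1(RNAi)* library was under the lowest control library, where 7.78% of all contigs showed this, and in 5 genes the order was the opposite, where 7.81% did. Those 5 were *ACTC*, *KIFC3*, *GBRL2*, *A4*, and *SODE*, of which the last 3 are named after their values were seen. The abundance of the list is high, with a median of 3549 reads per gene over the 6 libraries, against 887 for all contigs tested. More reads give a narrower interval, with a median width of 0.250 against 0.627 for the position control genes. The median standard error was 0.0614, against 0.113 for all contigs tested. The share called in this list is thus not on the same footing as that of the position control genes or of all contigs. With at least 100 counts in 3 libraries, 7 of 79 myogenesis genes and 1.83% of all contigs were called.

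**Figure D4:**
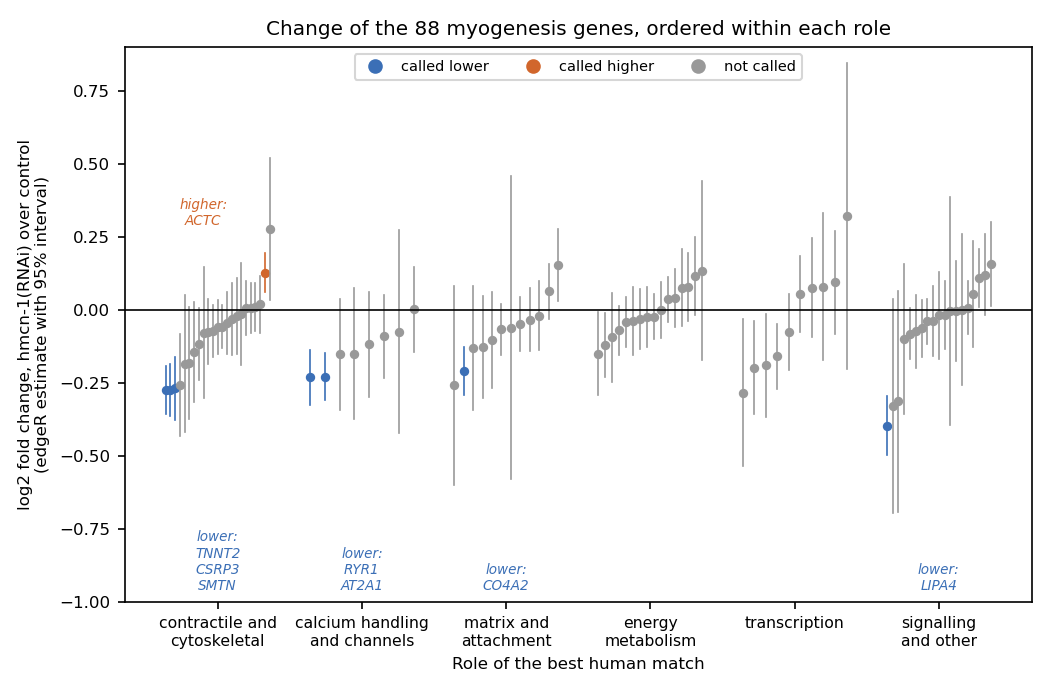
Log2 fold change of *hmcn-1(RNAi)* over control with its 95% interval (y axis) for the 88 myogenesis genes, in columns by the role of the vertebrate protein and ordered by value within each column, with called genes in color. The 7 called lower fall in the contractile, calcium, matrix, and signaling columns, and *ACTC* is the called gene above 0.

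Contractile and cytoskeletal genes made up 23 of the list, of which 3 were called lower and 1 higher. *TNNT2*, named after troponin T, which ties tropomyosin to the thin filament, was at 910, 829, and 810 CPM in control and 698, 708, and 699 CPM in *hmcn-1(RNAi)* tails. The *hmcn-1(RNAi)* libraries lay within a narrow band below every control library. *TNNT2* fell, with a log2 fold change of -0.28 ± 0.0408 (SE, edgeR with Benjamini-Hochberg adjustment, adjusted p = 7.21e-05). *CSRP3*, named after a LIM domain protein of the sarcomere's Z-disc, was at 298, 280, and 291 CPM in control and 242, 227, and 248 CPM in *hmcn-1(RNAi)* tails. It fell without overlap of the conditions, with a log2 fold change of -0.27 ± 0.0437 (SE, edgeR with Benjamini-Hochberg adjustment, adjusted p = 0.000278). *SMTN*, named after smoothelin, an actin-binding protein of smooth muscle, was at 116, 120, and 118 CPM in control and 91.0, 101, and 102 CPM in *hmcn-1(RNAi)* tails. It also fell, with *hmcn-1(RNAi)* replicate 1 the lowest, a log2 fold change of -0.27 ± 0.0534 (SE, edgeR with Benjamini-Hochberg adjustment, adjusted p = 0.00478). Without that library the call of *SMTN* was lost (edgeR with Benjamini-Hochberg adjustment, adjusted p = 0.0875), and it was also lost in DESeq2 without independent filtering (Benjamini-Hochberg adjusted p = 0.0722). Over the 13 alternatives the adjusted p of *SMTN* ran from 0.000422 to 0.0875 (edgeR, DESeq2, or limma-voom with Benjamini-Hochberg adjustment).

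*ACTC*, named after cardiac muscle actin, was the called gene with a higher level, at 18985, 17340, and 18574 CPM in control and 20518, 19521, and 19922 CPM in *hmcn-1(RNAi)* tails. The lowest *hmcn-1(RNAi)* library exceeded the highest control library by a small margin. The log2 fold change was 0.13 ± 0.0322 (SE, edgeR with Benjamini-Hochberg adjustment, adjusted p = 0.0403). This call was lost in 8 of the 13 alternatives, among them DESeq2, limma-voom, and leaving out control replicate 2, control replicate 3, *hmcn-1(RNAi)* replicate 1, or *hmcn-1(RNAi)* replicate 3. Over all 13, its adjusted p ran from 9.62e-05 to 0.466 (Benjamini-Hochberg, over edgeR, DESeq2, and limma-voom). Actin genes are alike in sequence, and the treatment of reads with more than 1 best match is not stated, so reads of *ACTC* may be shared with other actins. Of the 19 remaining contractile and cytoskeletal genes none was called. *KIFC3*, named after a kinesin motor, had the highest value among them, at 11.1, 12.2, and 12.0 CPM in control and 14.6, 14.9, and 13.5 CPM in *hmcn-1(RNAi)* tails. The conditions did not overlap, and the log2 fold change of 0.28 was not called (edgeR with Benjamini-Hochberg adjustment, adjusted p = 0.368).

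The set of calcium handling and channel genes held 8, and 7 of them had log2 fold changes below 0. *REEP1*, at -0.12 among these 7, is placed in this set loosely. *AT2A1*, named after the pump that returns calcium to the sarcoplasmic reticulum, was at 1005, 985, and 1042 CPM in control and 896, 816, and 875 CPM in *hmcn-1(RNAi)* tails. *RYR1*, named after the channel that releases it, was at 210, 224, and 225 CPM in control and 188, 195, and 179 CPM in *hmcn-1(RNAi)* tails. Both fell with no overlap between conditions. The log2 fold change of *AT2A1* was -0.23 ± 0.0395 (SE, edgeR with Benjamini-Hochberg adjustment, adjusted p = 0.000887). That of *RYR1* was -0.23 ± 0.0461 (SE, edgeR with Benjamini-Hochberg adjustment, adjusted p = 0.00496). The call of *RYR1* was lost without control replicate 3 and without *hmcn-1(RNAi)* replicate 3, and over the 13 alternatives its adjusted p ran from 0.000445 to 0.0809 (edgeR, DESeq2, or limma-voom with Benjamini-Hochberg adjustment). The remaining 6 genes, none called, had log2 fold changes between -0.15 and 0.0021.

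**Figure D5:**
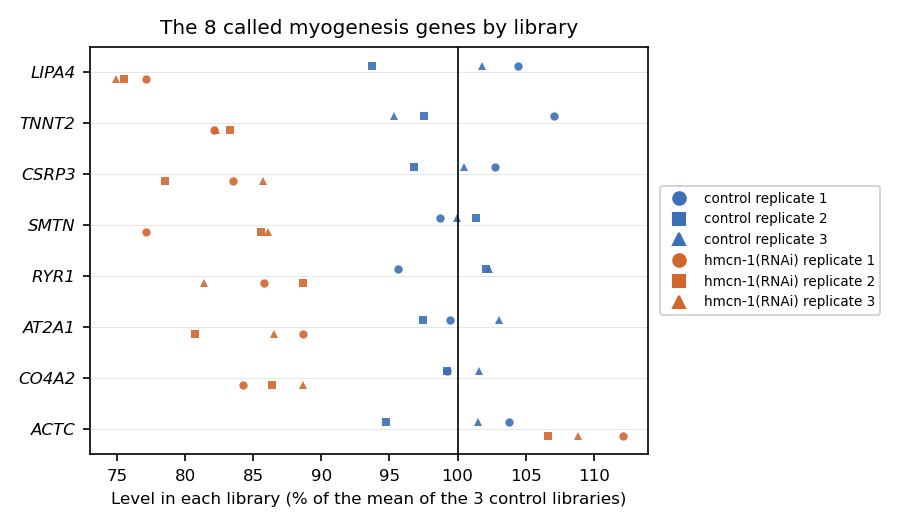
Level of the 8 called myogenesis genes in each library as a percentage of the mean of the 3 control libraries (x axis), with control in blue and *hmcn-1(RNAi)* in orange. For the 7 called lower the *hmcn-1(RNAi)* libraries lie between 74.9% and 88.7% and the control libraries between 93.7% and 107.1%, and for *ACTC* the *hmcn-1(RNAi)* libraries lie between 106.7% and 112.1%.

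Matrix and attachment genes were 12, with 10 below 0 and 1 called. *CO4A2* is listed under the name of an alpha chain of type IV collagen, the network collagen of basement membranes, and is the *col4-2* whose oligonucleotides are shown above. In the matrix protein table its best human match is COL24A1. It was at 435, 435, and 446 CPM in control and 369, 379, and 389 CPM in *hmcn-1(RNAi)* tails. Each condition was tight and *CO4A2* fell, with a log2 fold change of -0.21 ± 0.0398 (SE, edgeR with Benjamini-Hochberg adjustment, adjusted p = 0.00291). It is also 1 of the 18 collagens above, so its value and theirs are not separate observations. The study classes *COFA1*, which it names *mp-2*, as a collagen too. *COFA1*, listed after a multiplexin-type collagen, was at 32.1, 34.8, and 37.7 CPM in control and 32.6, 33.4, and 31.8 CPM in *hmcn-1(RNAi)* tails. Its conditions overlapped, with a log2 fold change of -0.10 (95% interval -0.27 to 0.06).

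The non-collagen matrix genes gave values on both sides of 0. *sparc*, which encodes a collagen-binding matricellular protein, was at 182, 212, and 217 CPM in control and 201, 195, and 202 CPM in *hmcn-1(RNAi)* tails. Control replicate 1 lay below all other libraries, and the log2 fold change was -0.03 with it and -0.11 without it. *agrin*, a proteoglycan of basement membrane, was at 228, 246, and 241 CPM in control and 228, 228, and 227 CPM in *hmcn-1(RNAi)* tails, with a log2 fold change of -0.07. *IBP7*, a secreted binding protein of growth factors, was at 17.6, 22.7, and 22.3 CPM in control and 18.4, 20.3, and 19.1 CPM in *hmcn-1(RNAi)* tails, with -0.13. Without control replicate 1 the value of *IBP7* was -0.23. In both genes, control replicate 1 lay apart from the other 2 control libraries and within or near the *hmcn-1(RNAi)* range. *lamininA*, an alpha chain of the basement membrane laminins, was at 99.7, 85.3, and 102 CPM in control and 99.9, 110, and 109 CPM in *hmcn-1(RNAi)* tails. Its log2 fold change of 0.15 (95% interval 0.03 to 0.28) was the highest of the 12 and was not called (edgeR with Benjamini-Hochberg adjustment, adjusted p = 0.307). The study assigns the contigs of *lamininA* to the intestine, of *agrin* to the pharynx, and of *sparc* and *IBP7* to muscle.

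None of the 10 transcription genes was called, and their log2 fold changes were below 0 for 5 and above 0 for 5. *myoD*, the homolog of the vertebrate myogenic regulator, is required for longitudinal muscle fibers in planarians. It was at 12.9, 13.6, and 12.6 CPM in control and 11.3, 10.7, and 10.2 CPM in *hmcn-1(RNAi)* tails. The conditions did not overlap, and the log2 fold change was -0.28 (95% interval -0.54 to -0.03, edgeR with Benjamini-Hochberg adjustment, adjusted p = 0.374). *TEAD4*, named after the DNA-binding partner of YAP and TAZ, was at 37.7, 39.7, and 37.1 CPM in control and 36.3, 31.9, and 31.9 CPM in *hmcn-1(RNAi)* tails. It also did not overlap, with a log2 fold change of -0.20 (edgeR with Benjamini-Hochberg adjustment, adjusted p = 0.295). *MEF2A*, named after a MADS box regulator of muscle differentiation, overlapped at 57.7, 58.7, and 52.8 CPM in control and 54.0, 54.0, and 52.3 CPM in *hmcn-1(RNAi)* tails, with -0.08. *KLF5*, named after a zinc finger factor, had the highest log2 fold change of the 88 at 0.32, from 2.25, 3.05, and 2.06 CPM in control to 3.63, 2.96, and 2.79 CPM in *hmcn-1(RNAi)* tails. The conditions overlapped and its interval was wide, from -0.20 to 0.85.

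The 16 genes of energy metabolism, among them those named after glycogen phosphorylase (*PYGM*) and muscle enolase (*ENOB*), all lay within 1.2-fold of control. So did all 8 calcium handling and channel genes and all 12 matrix and attachment genes, called ones included, and 85.4% of all contigs. Log2 fold changes of the energy metabolism genes ran from -0.15 to 0.13, with a median of -0.02, and none was called. The values for *PYGM* and *ENOB*, examples chosen after the values were seen, were -0.02 and 0.04. *SODE*, named after a superoxide dismutase, is placed in this set loosely.

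Among 19 signaling and other genes 1 was called. *LIPA4*, named after a liprin scaffold protein, was at 168, 151, and 164 CPM in control and 124, 122, and 121 CPM in *hmcn-1(RNAi)* tails. All *hmcn-1(RNAi)* libraries lay well below the control range, and *LIPA4* fell by a log2 fold change of -0.40 ± 0.0499 (SE), the largest decrease and the smallest adjusted p of the 88 (edgeR with Benjamini-Hochberg adjustment, adjusted p = 4.95e-06). The study's own table of this comparison names this contig PTPRF and the *TNNT2* contig RAB28, so both names rest on the list alone. It also gives CSRP1 for *CSRP3*, ATP2A2 for *AT2A1*, and RYR2 for *RYR1*. The same table assigns the *LIPA4* contig to neural cells and those of the other genes called lower to muscle. *HSPB8*, named after a small heat shock protein, was at 7.41, 6.32, and 5.46 CPM in control and 5.03, 4.86, and 5.16 CPM in *hmcn-1(RNAi)* tails, with a log2 fold change of -0.33 (95% interval -0.70 to 0.04). *SH2B1*, named after a signaling adapter, overlapped at 6.44, 5.86, and 7.03 CPM in control and 4.09, 6.52, and 4.99 CPM in *hmcn-1(RNAi)* tails, with -0.31. *VAS1*, named after an accessory subunit of the vacuolar proton pump, had 62.3, 54.6, and 63.8 CPM in control and 71.0, 70.4, and 60.4 CPM in *hmcn-1(RNAi)* tails. Its log2 fold change of 0.16 was not called, with *hmcn-1(RNAi)* replicate 3 inside the control range (edgeR with Benjamini-Hochberg adjustment, adjusted p = 0.404).

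The calls of *LIPA4*, *TNNT2*, *CSRP3*, *AT2A1*, and *CO4A2* held in all 13 alternatives run. Without control replicate 1, which stood apart, the same 7 genes were called lower and *ACTC* higher. Set beside each other, the largest decrease called in the myogenesis list was a log2 fold change of -0.40, and the point estimates of *bmp* and dd_15423 lay below it without a call, at a total of 133 and 149 reads against 7211 for *LIPA4*.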

How the data were processed

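Poly(A) RNA libraries from 6 pools of 5 tails, 3 control and 3 *hmcn-1(RNAi)*, were grouped by their sample labels. The authors mapped reads with bowtie 1.2.2 to the dd_Smed_v6 transcriptome and, using samtools 1.9, merged and summed reads over the isotigs of each contig. The deposited values are raw counts per contig without normalization. The use of strand in counting is not stated. Values of the authors' own comparison (means, fold changes, test statistics, and p values), deposited as a table, were not used. Only names and cell types of called contigs were taken from the study's table of this comparison.

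Contigs were kept by filterByExpr with a minimum count of 10, scaled by TMM (factors 0.977 to 1.02), and compared in edgeR 4.0.16 (R 4.3.3) by the robust quasi-likelihood test, with the condition as single factor and p values Benjamini-Hochberg adjusted over 15333 contigs. Standard errors are the log2 fold change divided by the square root of F, and 95% intervals use the t distribution with the moderated degrees of freedom of each contig. Intervals give the uncertainty of the log2 fold change, based on the spread between pools and on variation shared across contigs. The test was first run on counts simulated with known changes. The common biological coefficient of variation was 6.28%. A prior count of 1 was added for library medians of log2 CPM. The chi-square between libraries was taken over contigs with at least 20 reads in all. Tables and plots were made with Python 3.11.15, pandas 2.3.3, and matplotlib 3.10.9.

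The members and lists were chosen with earlier results of these data known. All position control genes are named. Of the myogenesis genes, those named are every called gene, *myoD*, *MEF2A*, *TEAD4*, the 3 largest log2 fold changes in each direction, and *sparc*, *CO4A2*, *COFA1*, *agrin*, *lamininA*, and *IBP7*. Outside this rule, *GBRL2*, *A4*, *SODE*, *PYGM*, *ENOB*, and *REEP1* are named after their values were seen. Marker lists were the canonical muscle genes and collagens of the study's tables and the genes of its tissue probe pools.

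Alternatives were RLE factors, no filter, a stricter minimum of 100 counts in 3 libraries, limma-voom (limma 3.58.1), DESeq2 1.42.0 (independent filtering on or off), the replicate number as a block, and each library left out in turn. One more, chosen after seeing the data, exchanged the names of 2 contigs.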

Additional observations from a re-analysis of the deposited data

How the results depend on the processing

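No secreted position control gene was called in any of the 13 alternatives. Of the other set, 1 (*fz4-1*) was called without a filter on low counts, 1 with the replicate number as a block, and 1 without control replicate 1, and leaving out single libraries gave 0 to 1. Called lower myogenesis genes numbered 6 to 7 in every alternative. The count called higher was 1 or 0, and was 0 with at least 100 counts in 3 libraries, 0 in DESeq2 without and 0 with independent filtering, and 0 in limma-voom, and with single libraries left out it ran from 0 to 1. With single libraries left out, median log2 fold changes ran from -0.21 to -0.080 for the secreted set, from -0.13 to -0.07 for the other set, and from -0.058 to -0.033 for the myogenesis genes. Of the 46 tested genes that the naming rule covers, *hmcn-1* among them, 9 were called. Of these 9, 3 (*SMTN*, *RYR1*, *ACTC*) lost the call in some alternative and 0 changed sign, whereas 8 uncalled genes changed sign in some alternative.

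Over all contigs, 173 were called in the main comparison, 339 without a filter, 66 and 112 in DESeq2 without and with independent filtering, and 75 to 255 with a library left out. To look for pairing, each contig's condition mean was subtracted from its log2 CPM, and the remainders were correlated between libraries. The remainders cancel out within a condition, so these correlations are tied to each other and do not describe the levels. For same-numbered libraries of the conditions they were 0.0259, 0.0843, and 0.014. Control replicate 1 correlated best with *hmcn-1(RNAi)* replicate 3 (0.0434), and the other differently numbered pairs lay between -0.0635 and -0.000882. These small values do not settle whether the numbers pair the libraries, and the main test did not pair them. With the replicate block 292 contigs were called, and among the members the block added *fz4-1* (edgeR with Benjamini-Hochberg adjustment, adjusted p = 0.0325) and lost none.

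The intervals of the log2 fold change were widest for genes with few reads, such as *wnt2*, *notum*, and *sFRP-1*, which limits what can be said of them. *wnt1* and *foxD* could not be tested in these tails at this depth.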
